A study of Drosophila melanogaster with 2 samples.

Results

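Axon guidance and neural adhesion genes were examined for binding of Six4, a homeodomain transcription factor related to Sine oculis, in whole Drosophila melanogaster embryos. The set comprised 40 genes named by function, out of 13945 protein-coding genes on 6 chromosome arms. All 40 were found in the annotation, 39 by symbol and mid1 as Mid1 through a synonym. Binding had been mapped by chromatin immunoprecipitation and sequencing (ChIP-seq) with an antibody against green fluorescent protein (GFP), as the sample descriptions state, although the antibody field of the labels reads Six4. The embryos came from a transgenic line with GFP fused to the C terminus of Six4, were 0 to 16 hours old and were collected as whole animals of both sexes. There were 2 samples, biological replicates 1 and 3 of 1 group, with no second genotype, treatment or stage. Both carried the tagged transgene, whether the untagged gene was also present is not given in the sources used here, and the mixture of tissues means that a peak cannot be placed in neurons, muscle or any other cell type. A peak bound in few cells and one bound weakly in many cannot be told apart. The labels name a possible control experiment, which was not analysed here.

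The deposited values are lists of peaks. The set that passed the authors' irreproducible discovery rate (IDR) procedure held 3974 peaks, and a summit is the point of highest signal that the peak file gives for each. A gene's window is its annotated body extended by 2 kb on both sides, and a gene is called occupied where the window holds 1 or more summits of the IDR set. The signal of a peak is the value of the authors' peak caller and was used to rank peaks within 1 list. In the IDR set it ran from 81.1 to 1741 with a median of 128. The peaks of this set were the 3974 strongest of 30000 entries in the list of both replicates pooled, and the lists of replicates 1 and 3 held 30000 and 28237 entries. Read numbers were not analysed and the depth of the libraries is unknown. The intervals given below reflect only the numbers of genes and peaks, and not the variation between the 2 replicates. With no second group, no comparison between conditions could be made, and counts are given beside those of all genes with no test.

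Growing axons read cues that attract or repel them. Netrins act through the receptor Frazzled (fra) as attractants and through Unc-5 as repellents, Slit (sli) repels through the Robo receptors, and semaphorins and ephrins signal through plexins and the Eph receptor. Adhesion proteins such as Dscam1, the fasciclins, cadherins, teneurins and leucine-rich repeat proteins let neurites bundle, separate and choose partners. Several of these genes are also used outside the nervous system, for example Slit and Robo in muscle attachment and heart formation, and Six4 is itself known for its part in muscle, gonad and head development.

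The sequences below are those of the reference genome around peak summits, and not of the DNA that was recovered. Windows of 201 bases, 100 to each side of the summit, are given for the strongest peak of 5 occupied members on 2L, 3L, X and chromosome 4, and none of these windows held an annotated exon. Other members, some with stronger peaks, are not shown. They are read 5′ to 3′ on the plus strand of dm6 from RefSeq (Release 6), in order of signal. Capitals mark 3 words searched on both strands, namely TGATAC, the core of sites bound by Six4-type proteins, TAATTA, a general homeodomain site, and TATCGATA, the DNA replication-related element of promoters. None of the 3 words overlapped another in these windows.
Sema1a (chr2L:8575057-8575257): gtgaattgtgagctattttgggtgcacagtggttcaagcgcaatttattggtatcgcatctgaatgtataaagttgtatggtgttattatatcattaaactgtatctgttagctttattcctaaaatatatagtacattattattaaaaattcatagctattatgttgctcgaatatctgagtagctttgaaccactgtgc
NetA (chrX:14627460-14627660): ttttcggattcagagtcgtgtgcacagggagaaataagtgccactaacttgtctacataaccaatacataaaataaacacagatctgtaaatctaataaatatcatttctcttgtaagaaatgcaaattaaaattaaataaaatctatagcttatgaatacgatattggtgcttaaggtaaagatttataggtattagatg
PlexA (chr4:1027180-1027380): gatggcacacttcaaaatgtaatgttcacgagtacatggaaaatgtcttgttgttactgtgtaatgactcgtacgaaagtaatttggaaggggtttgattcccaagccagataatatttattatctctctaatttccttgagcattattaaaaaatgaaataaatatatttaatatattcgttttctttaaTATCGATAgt
caps (chr3L:13235561-13235761): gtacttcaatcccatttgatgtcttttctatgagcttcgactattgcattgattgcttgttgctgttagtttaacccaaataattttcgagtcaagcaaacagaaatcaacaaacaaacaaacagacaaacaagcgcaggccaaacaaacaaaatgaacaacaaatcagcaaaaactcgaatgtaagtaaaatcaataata
Ten-a (chrX:12202335-12202535): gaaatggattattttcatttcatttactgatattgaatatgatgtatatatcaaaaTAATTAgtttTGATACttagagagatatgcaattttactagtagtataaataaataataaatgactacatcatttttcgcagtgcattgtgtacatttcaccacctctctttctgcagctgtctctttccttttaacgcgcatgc
A further window, an intronic peak of drl that ranked 3534, is shown because it holds 2 copies of TGATAC.
drl (chr2L:19193750-19193950): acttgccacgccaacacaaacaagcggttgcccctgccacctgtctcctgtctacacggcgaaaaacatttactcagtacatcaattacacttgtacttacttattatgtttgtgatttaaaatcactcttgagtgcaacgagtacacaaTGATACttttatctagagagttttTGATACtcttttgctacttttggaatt
The windows of Sema1a, NetA and caps held none of the 3 words. That of PlexA, at the promoter, held 1 TATCGATA near its right edge, and that of Ten-a held 1 TAATTA and 1 TGATAC within 50 bp to the left of the summit.

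Of the 40 members, 17 were occupied (42.5%, exact Clopper-Pearson 95% interval 27.0 to 59.1%). Among all protein-coding genes 31.2% were occupied, but the members are long, with a median window of 40.5 kb against 6.17 kb. Among members with windows of 20 kb or more, 16 of 29 were occupied (55.2%, interval 35.7 to 73.6%), and the share among all genes in that class was the same, 55.2% of 1298. The members in this class were longer, with a median window of 49.2 kb against 34.7 kb, so they were not matched in length. With windows of 50 kb or more, 10 of 14 members were occupied (71.4%, interval 41.9 to 91.6%) beside 60.3% of 358 genes. At 20 to 50 kb it was 6 of 15 members (interval 16.3 to 67.7%) beside 53.2% of 940 genes. Of 11 members with windows under 20 kb only Toll-7 was occupied (9.09%, interval 0.230 to 41.3%). Among all genes under that length 28.7% were occupied, but these are shorter, with a median window of 5.94 kb against 12.4 kb for the members. In narrower classes, 1 of 6 members was occupied at 10 to 15 kb beside 43.6% of genes, and 0 of 3 at 15 to 20 kb beside 44.7%. The 2 members with windows under 10 kb (trn and 18w) were not occupied, beside 31.8% of genes at 6 to 8 kb and 39.5% at 8 to 10 kb. Of the 29 long members, 10 held 2 or more summits (34.5%, interval 17.9 to 54.3%), beside 32.6% of long genes. The share of occupied members thus lay near the background for all windows of 20 kb or more and below it for shorter ones, in few genes and with no test.

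**Figure D1:**
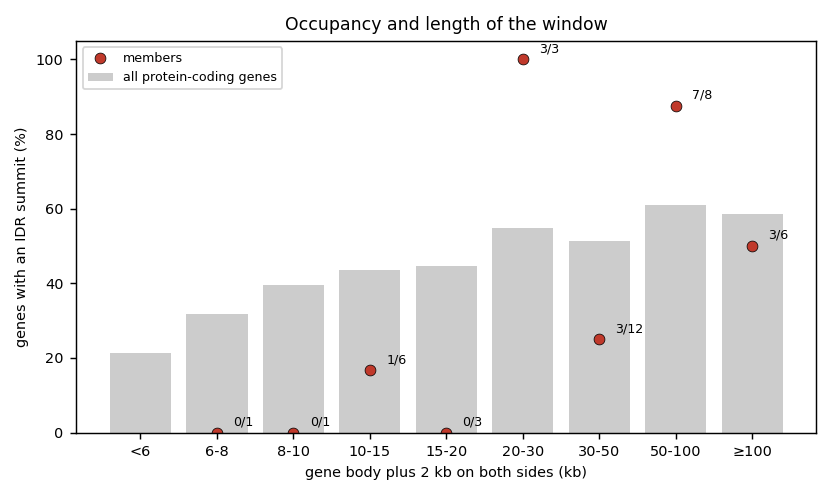
Percent of genes with a summit of the IDR set in the window (vertical axis) by length of the window in kb (horizontal axis). Bars are all protein-coding genes, points are the members, with the number occupied over the number of members in each length class. The bars run from 21.3% to 60.9%, and the members lie on both sides of them, with 3 of 12 occupied at 30 to 50 kb and 7 of 8 at 50 to 100 kb.

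The 46 summits in the members' windows had a lower median signal and lay farther from gene starts than those of the whole set. Their median signal was 106 (quartiles 89.1 and 167) beside 128 (quartiles 99.0 and 189) for all 3974 peaks, and beside 127 for the 1627 summits in long windows. Of the 46, 6 were among the 1000 strongest peaks (13.0%, interval 4.94 to 26.3%), beside 24.3% of those in long windows. Within 500 bp of any transcription start site (TSS) lay 9 (19.6%, interval 9.36 to 33.9%), beside 49.8% of all summits and 33.2% of those in long windows. Introns of the member itself held 37 summits (80.4%, interval 66.1 to 90.6%), with 3 more upstream of the gene, 3 in 5′ untranslated sequence, 1 in 3′ untranslated sequence and 2 downstream. The median distance to the nearest TSS of the member was 10170.5 bp, and 8 summits were more than 30 kb away. Density was 20.8 summits per Mb of window, beside 34.7 over all protein-coding windows. For members with long windows it was 21.8, beside 27.0 over all long windows. No test was made of these differences, and neighbouring summits of 1 gene are not independent.

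**Figure D2:**
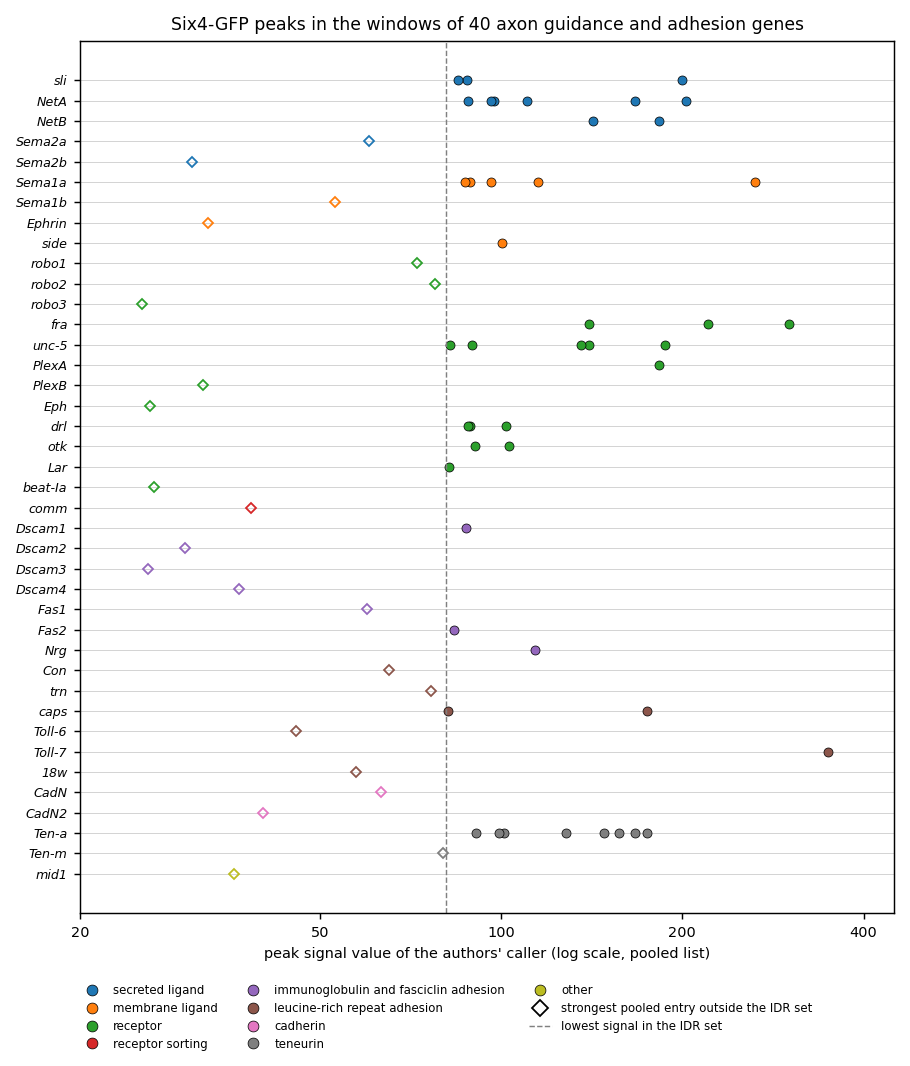
Signal value (log scale, authors' caller, pooled list) of every summit of the IDR set in the window of each member, 1 row per gene, coloured by role. Open diamonds give the strongest pooled entry of the 23 members without such a summit, all of them left of the dashed line at 81.1, the lowest signal of the IDR set, with Ten-m nearest to it at 80.2.

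All 4 genes of the netrin system held summits, namely NetA and NetB, which encode both netrins, and the receptor genes fra and unc-5. All 4 windows were long, and 55.2% of all long genes were occupied. There were 16 summits, or 34.8% of those in the group, in 192 kb of window (83.2 per Mb, beside 27.0 over all long windows). High density was not particular to this system, since drl and otk together held 5 summits in 44.7 kb (112 per Mb). The genes were grouped by system after their values were seen, and with each peak given to its nearest protein-coding start NetB and fra were no longer occupied. NetA (FBgn0015773, X, 14604012 to 14653928, minus strand) had 6. Its strongest peak (14627348 to 14627771) had a signal of 203 and lay in an intron 26274 bp downstream of the NetA start, with rank 853 in the set, 856 in replicate 1 and 1053 in replicate 3. A second intronic peak had a signal of 167 and ranked 1228 and 1323 in the replicates. The other NetA peaks had signals of 88.1 to 110.3, and 1 of them, downstream of the gene, lay 181 bp upstream of the start of the neighbour sbm. All 6 were among the 3974 strongest entries of replicate 3, and 4 of them among those of replicate 1. Its strongest peak was nearer to the start of sbm than to that of NetA. NetA was 1 of 47 protein-coding genes that held 6 or more summits.

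NetB (FBgn0015774, X, 14686038 to 14749376, minus strand) lies 32.1 kb from NetA and had 2 summits. The stronger (183) was intronic, 31558 bp from the NetB start and 1490 bp downstream of the start of hog. It ranked 610 in replicate 1 and 1825 in replicate 3. The other (142) lay in the 3′ untranslated part 59782 bp from the start, held TGATAC, and ranked 3175 and 1256, so that the order of both peaks differed between the replicates.

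The receptor gene fra (FBgn0011592, 2R, 12529053 to 12564184, plus strand), which mediates attraction to netrins, had 3 summits in its first intron, 9213, 11845 and 14779 bp from its start. Their signals were 140.2, 220.3 and 300.3. The strongest (12543690 to 12543912), rank 374 in the set, ranked 250 in replicate 1 and 555 in replicate 3. All 3 were nearer to the start of CG33752 than to that of fra, and the strongest lay 1857 bp upstream of it. The repulsive receptor gene unc-5 (FBgn0034013, 2R, 15340472 to 15368300, plus strand) had 5 summits in a window of 31.8 kb, and was among the 30 densest of 1298 long genes. The strongest (187) lay 226 bp upstream of an internal start, with ranks of 754 and 1418, and another (140.2) lay 777 bp upstream of the first start. A pair of intronic summits (136 and 89.6) lay 0.202 kb apart and overlapped the same entry in each replicate, so the replicate lists do not separate them.

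Of 5 genes of the Slit pathway, 1 was occupied, with no test against other genes, and 3 of the 5 had long windows. For comparison, 55.2% of all long genes were occupied, and 43.6% of all genes in the length class of robo1 and comm. The ligand gene sli (FBgn0264089, 2R, 15869495 to 15922118, minus strand), made by midline glia as a repellent, had 3 summits. The strongest, 3750 bp downstream of an internal start, had a signal of 199.8 and rank 880, and it ranked 890 and 864 in the replicates. The others were weak (87.8 and 84.9), and the last lay 144 bp upstream of the start of Rif1, beyond the 3′ end of sli. None of the Robo receptor genes was occupied. The strongest pooled entry had a signal of 72.5 at robo1, 3 bp from its start, and of 77.8 at robo2, both not far under the lowest IDR signal of 81.1. In replicate 1 these entries ranked 3879 and 3681, within the first 3974, but in replicate 3 they ranked 4802 and 4924. For robo3 it was 25.3 (rank 22504). The gene comm, whose product sorts Robo away from the growth cone surface, had no entry stronger than 38.4. With 3 summits in 169 kb, the slit genes had 17.8 per Mb, beside 27.0 over all long windows.

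Among semaphorin genes, the transmembrane ligand gene Sema1a (FBgn0011259, 2L, 8542147 to 8672041, plus strand) had 5 summits, all in introns. The strongest had a signal of 264 (rank 497, and 557 and 433 in the replicates) and lay 31827 bp from the nearest Sema1a start. The others had signals of 87.3 to 115. All 5 were among the 3974 strongest entries of replicate 3, and 3 of them among those of replicate 1. The receptor gene PlexA (FBgn0025741, chromosome 4, 1009895 to 1027101, minus strand) had 1 summit (183) 179 bp upstream of its start. It ranked 2091 in replicate 1 and 705 in replicate 3. Sema1b, Sema2a, Sema2b and PlexB had none, with best pooled signals of 53.1, 60.4, 30.7 and 32.0. The ephrin pair Ephrin and Eph was empty too, with 32.6 and 26.1. For comparison, 43.6% of all genes were occupied in the length class of Sema1b and Ephrin, and 44.7% in that of PlexB and Eph. Sema2a and Sema2b had long windows, and 55.2% of all long genes were occupied. PlexB, Ephrin and Eph are on chromosome 4, where 6 of 24 long genes were occupied. No test was made of these counts.

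Of the remaining receptor genes, drl, which encodes a Ryk-type receptor for Wnt5, and otk, a receptor-like protein also linked to Wnt signalling, were occupied by weak peaks. The 3 summits of drl (FBgn0015380, 2L, 19190342 to 19208621, plus strand) had signals of 102, 88.9 and 88.0 and lay 6556, 33 and 3508 bp downstream of its start. None was among the 3974 strongest entries of both replicates. The promoter summit, for example, ranked 2976 in replicate 1 and 4567 in replicate 3. By density drl was among the first 57 of 1298 long genes. The 2 summits of otk (FBgn0004839, 2R) had signals of 103 and 90.4, the first in the 5′ untranslated part 506 bp from the start and with TGATAC in its window. The receptor tyrosine phosphatase gene Lar, 145 kb long, had 1 summit (82.1) 66 bp upstream of an internal start, which ranked 6153 in replicate 1 and 3144 in replicate 3. The receptor gene beat-Ia was empty (best entry 26.5), while side, which encodes its ligand, had 1 intronic summit of 100.2 (ranks 2163 and 4007).

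Of 7 adhesion genes of the immunoglobulin and fasciclin families, 3 were occupied, beside 55.2% of all long genes, and all but Fas1 had long windows. They held 3 summits in 324 kb (9.27 per Mb, beside 27.0 over all long windows), with no test made of the difference. Dscam1, whose transcripts are spliced into a very large number of forms, had a summit of 87.6 at 36 bp downstream of a start, with ranks 3241 and 4915. Its relatives Dscam2, Dscam3 and Dscam4 had none and best entries of 29.9, 25.9 and 36.7. Fas2, which bundles motor axons, had an intronic summit of 83.5 (ranks 3021 and 4931), and Nrg, the neuroglian gene, an intronic one of 114 (ranks 2275 and 2554). Fas1 had none (60.0). The single peaks of Dscam1, Fas2 and side were thus outside the 3974 strongest of replicate 3, and that of Lar outside those of replicate 1.

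Toll-7, a leucine-rich repeat receptor of the Toll family, had the strongest peak of all members. It was a single promoter summit (2R, 19826178 to 19826414, signal 349), 276 bp upstream of the start of Toll-7 (FBgn0034476), rank 259 in the set, 144 in replicate 1 and 468 in replicate 3. The related genes Toll-6 and 18w had none, with best pooled entries of 45.6 and 57.4 that lay 3 bp and 36 bp from their starts. Of the paralogues caps and trn, which encode leucine-rich repeat proteins of target recognition, caps had intronic summits of 175 (ranks 996 and 1356) and 81.5. The best entry of trn was 76.4, upstream of its start, and ranked 3624 and 5779. Con, the connectin gene, had none in a window of 146 kb, its best entry being 65.1.

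The teneurin genes, which match pre- and postsynaptic partners, and the cadherin genes CadN and CadN2 are among the longest. Ten-a (FBgn0267001, X, 12043698 to 12335214, plus strand) held 8 summits, a number reached by 17 protein-coding genes, with signals from 91.0 to 175. They were not spread over its 292 kb but lay in a stretch of 45.8 kb, from 158737 to 204513 bp downstream of its first start, with gaps of 1.31 to 17.0 kb. The strongest lay 1363 bp upstream of an internal start, with ranks of 1169 and 1220, and another (148) lay 33 bp upstream of an internal start. All 8 were among the strongest 3974 entries of replicate 3 and 7 among those of replicate 1. Per length Ten-a was not dense, since it was only among the first 581 of 1298 long genes. Its paralogue Ten-m had none in 119 kb. Its best entry, 80.2, was rank 4033 in the pooled list and thus just outside the IDR set, and it ranked 5494 and 3773 in the replicates. CadN and CadN2 had none in 135 and 92.3 kb, with best entries of 63.2 and 40.3, and mid1 had none (36.0).

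**Figure D3:**
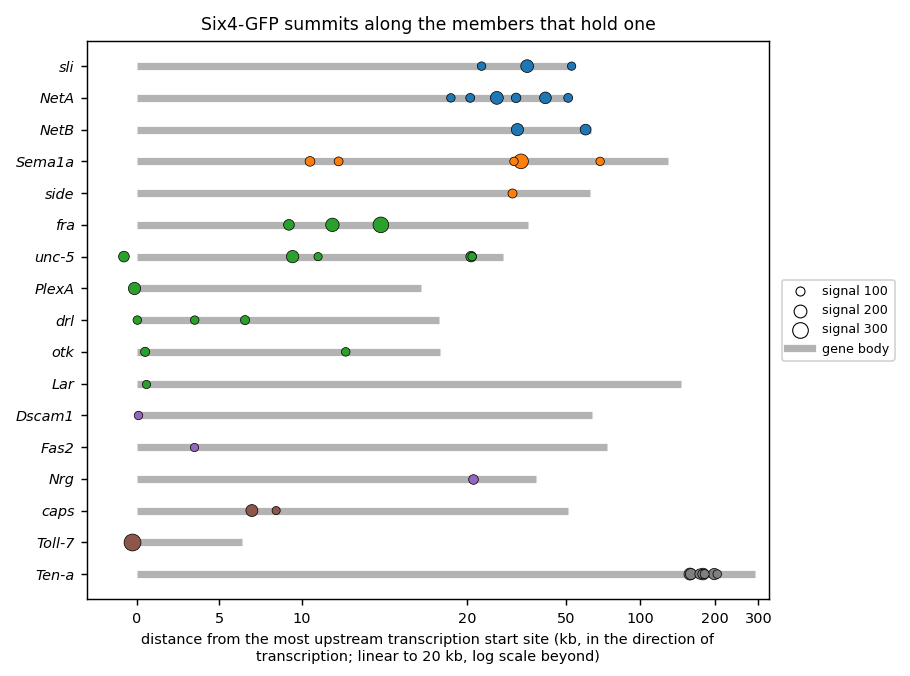
Position of each summit along the 17 occupied members, in kb from the most upstream start in the direction of transcription (linear to 20 kb, log scale beyond). Grey bars are gene bodies, circle area grows with the signal and colour gives the role as in the plot of signals by member. Summits of PlexA and Toll-7 lie at the start, those of NetA begin 19018 bp inside the gene, and the 8 of Ten-a lie together 158737 to 204513 bp inside.

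Of the 46 summits, 7 lay within 500 bp of a start of the member itself, 1 each in unc-5, PlexA, drl, Lar, Dscam1, Toll-7 and Ten-a. Another 2 lay at the starts of neighbours, sbm and Rif1. For 29 summits (63.0%, interval 47.5 to 76.8%) the nearest protein-coding start was that of the member, and for 17 it was that of another gene.

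The number of occupied members varied between chromosome arms, in counts too small for a comparison. All 5 members on X had long windows, were occupied and carried 18 of the 46 summits, beside 62.6% of long genes on X. Of 5 members with long windows on 3L, 1 was occupied (caps), beside 55.9% of long genes there. Among members with long windows, 3 of 8 were occupied on 2L, 5 of 8 on 2R, 1 of 2 on 3R and 1 of 1 on chromosome 4. The shares of all long genes there were 51.1%, 54.0% and 55.0%, and 6 of 24 on chromosome 4. The 11 shorter members were on 2R, 3L, 3R and chromosome 4. The X members had a median window of 67.3 kb and the 3L members one of 41.2 kb.

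Every member had at least 1 entry in the pooled list, background included. Their windows held 211 such entries per Mb, beside 224 over the 6 arms. How many other genes held a pooled entry, or reached the ranks below while unoccupied, was not counted. Of the 23 unoccupied members, the strongest entry ranked from 4033 to 22504 with a median of 10746. A rank of 5000 was reached by 4 of them (Ten-m, robo2, trn and robo1), and 10000 by 11. In the separate lists 5 of the 23 had an entry among the strongest 3974 of replicate 1 (robo1, robo2, trn, Fas1 and Ten-m), and 1 among those of replicate 3 (Ten-m). The members just inside the limit were Lar (82.1), Fas2 (83.5) and Dscam1 (87.6).

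A smaller share of these peaks than of the whole set was found in both replicates, with no test made of the difference. Of the 46 peaks, 28 (60.9%, interval 45.4 to 74.9%) were overlapped by 1 of the 3974 strongest entries of both replicates, beside 78.2% of all IDR peaks. Where the overlap had to cover 50% of both entries, the shares were 58.7% and 69.2%. Another 12 were matched in replicate 3 alone, 5 in replicate 1 alone and 1 in neither. The median rank of the 46 was 2719.5 in replicate 1 and 2468 in replicate 3, with summits a median of 15.5 and 15.0 bp from the pooled one. The 6 member peaks among the 1000 strongest ranked 1151 or better in both replicates. The members' peaks also had the lower median signal, and the part of this in the overlap was not tested.

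**Figure D4:**
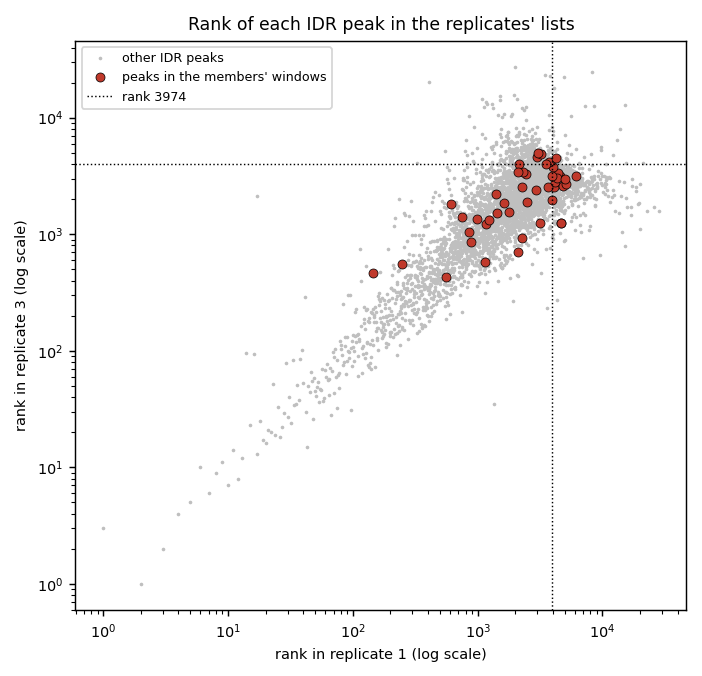
Rank in the list of replicate 1 (horizontal) and of replicate 3 (vertical, both log scales, rank 1 strongest) for each IDR peak with an overlapping entry in both. Red circles are the 46 peaks of the members and grey dots the other peaks; dotted lines mark rank 3974. The red circles lie between rank 144 and 6153 in replicate 1, and 28 of the 46 peaks were matched on the stronger side of both lines.

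The summit windows of the members had a median of 34.1% G and C (quartiles 31.8 and 39.9%), beside 34.3% over all summits. TGATAC was within 100 bp of 5 of the 46 summits (10.9%, interval 3.62 to 23.6%), beside 6.49% of all windows of this length and 6.15% in long genes. These were 1 summit each of sli, NetB, drl, otk and Ten-a. TAATTA was at 10 summits (21.7%, interval 10.9 to 36.4%), beside 18.4% of all, and 5 of the 10 belonged to Ten-a. TATCGATA was at 1, that of PlexA (2.17%), beside 3.40% of all. At 31 summits (67.4%) none of the 3 words was found, beside 73.5% of all. With 46 peaks, the intervals include the shares of the whole set for each word.

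Other genes of the same pathways, listed by role, were occupied to very different extents. Of 107 such genes, 50 had a summit (46.7%), again beside 31.2% of all protein-coding genes. Of the 65 with long windows 27 had one (41.5%), beside 55.2% of all long genes. Cytoskeletal effectors, which carry guidance signals to actin, were occupied in 17 of 22 cases, with a median window of 11.5 kb. They were led by the Rac-like GTPase gene Mtl (754, upstream of its start but nearer to that of CG5611) and by the cofilin gene tsr (268). Receptor tyrosine phosphatases were occupied in 4 of 6 cases, with Ptp4E (381) and Ptp10D (153) first. The Wnt ligand genes Wnt5 and Wnt4, the Ryk-type receptor genes dnt and Drl-2, fz and dsh were occupied in 4 of 6 cases, with fz (461, intronic) and Wnt5 (202) first. Other adhesion and matrix genes were occupied in 17 of 24 cases, with the glypican gene dlp (268) and comm3 (228) first. The large surface protein families of synaptic partner choice stood lower. The Beat and Side families were occupied in 4 of 20 cases, with beat-Ib (344) and side-IV (177) first, and the Dpr and DIP families in 4 of 29, with dpr14 (201, at the promoter of spidey) and DIP-alpha (191) first. Of the long genes in these lists, 3 of 17 Beat and Side genes and 1 of 21 Dpr and DIP genes were occupied, beside 55.2% of all long genes. All 6 long effector genes were occupied, as were 11 of 14 long genes of the other adhesion and matrix list. The same was so for 3 of 3 long receptor tyrosine phosphatase genes and 3 of 4 long genes of the Wnt and Ryk-type list. The strongest peaks of fz, dlp, comm3, beat-Ib and DIP-alpha lay nearer to the start of another protein-coding gene than to their own. Among the other occupied genes the same held for Mical, Rac1, RhoGEF64C, trio, capt, Cdc42, mew, haf, dally, wrapper, Cont, side-V and dpr19. Those of Mical, capt, Cdc42, haf, Cont and dpr19 lay within 500 bp of the neighbour's start. Whether the pathway lists differ from other genes of their length was not tested.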

How the data were processed

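ChIP-seq peak lists of 2 samples, replicates 1 and 3 of 1 group of Six4-GFP embryos, were used. Chromatin was sonicated to 200 to 800 bp, per the labels. Per the deposited file listing, the authors made 1 list per replicate and 1 of both pooled, holding peaks and background for IDR, and took the optimal set from these lists. The pooled and replicate lists each name 1 further input whose content is not stated. Which aligner and caller were run, and the IDR cut-off, is not given in the sources used here. The deposited signal value of each peak is that of the authors' caller; its scale is not stated, so replicates were compared by rank.

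Coordinates are on dm6, counted from 1, with Ensembl 115 annotation and the RefSeq Release 6 genome. Summits were assigned to gene bodies extended by 2 kb. Promoter summits lay within 500 bp of a TSS of any gene other than transposable elements. A replicate entry matched a peak with an overlap of 1 bp or more. The rank printed for a replicate is that of the overlapping entry with the nearest summit, from the whole list. Clopper-Pearson intervals (exact, 95%) reflect only counting error and treat genes or peaks as independent, which neighbours are not. No chance test was made. Analyses used Python with numpy 2.4.6, pandas 2.3.3 and scipy 1.17.1. The assignment of summits to windows and the search for TGATAC were tested on simulated data with planted summits and words. Distances were checked at annotated starts, and the other counts were not tested in this way.

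The members and lists were chosen with earlier results of these data known. Each occupied member was named with its strongest peak, members without a summit with their best pooled entry, and of each pathway list the 2 genes with the strongest peak. The sequences shown are the strongest peak of members in order of signal, apart from those not reported here (some arms and 1 further window), and 1 window added after its words were seen. Grouping by ligand and receptor system, and by arm, was added after the values were seen. The dm3 lists were not used.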

Additional observations from a re-analysis of the deposited data

How the results depend on the processing

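The number of occupied members stayed within 1.5 times its value of 17 with other windows and with each peak given to its nearest protein-coding TSS, from 15 with no extension to 23 with 5 kb, but its standing beside all genes moved. Members and all genes were at 42.5% and 31.2% as reported, 37.5% and 10.4% with no extension, 57.5% and 43.7% with 5 kb, and 18 of 40 and 19.4% by nearest TSS. Among genes with long windows the pairs were 55.2% and 55.2%, 51.7% and 44.8%, 69.0% and 61.6%, and 51.7% and 45.6%. Under the nearest TSS rule the number was 18, but 14 of these were among the 17. NetB, Nrg and fra lost their peaks to neighbours, and 18w, Toll-6, mid1 and robo2 became occupied. Without replicate 1 (the strongest entries of replicate 3) 15 members were occupied, 14 of them shared, and without replicate 3, 21, with 16 shared. These were 37.5% and 52.5% of members, beside 31.1% of all genes in both cases. Among those with long windows the pairs were 48.3% and 55.2% without replicate 1, and 58.6% and 55.6% without replicate 3. With only the IDR peaks above the median signal, which leaves fewer peaks by construction, 10 of 40 members were occupied, beside 18.9% of all genes. Among those with long windows it was 9 of 29 members, a lower share than the 37.4% of all long genes. The members held 19 summits with a median signal of 175 (189 over all peaks kept), and Dscam1, Fas2, Lar, Nrg, drl, otk and side were no longer occupied. The median signal was 51.1 in the list of replicate 1 (58.3 over its strongest entries) and 63.4 in that of replicate 3 (72.5), on scales that differ between lists. The member median was the lower in each. The share at promoters ranged from 15.2% to 24.4%, the match in both replicates from 58.7% to 60.9% (all peaks 69.2% to 78.2%, so that the gap was smaller under 50% reciprocal overlap), and the share with TGATAC from 8.70% to 13.0%, which with windows of 250 bp to each side was close to that of all peaks (13.1%). Pathway genes with a summit numbered 34 to 56 beside 50. Their share was 46.7% as reported, 33.6% with no extension, 52.3% with 5 kb, 34.6% by nearest TSS and 31.8% above the median signal (18.9% of all genes). Among those with long windows it was 41.5%, 26 of 65, 44.6%, 32.3% and 30.8%, below all long genes each time (37.4% for the last). Depth is unknown, so that members near the limit of the IDR set cannot be called empty. No paired analysis was possible because there was 1 group.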
